A study of Capra hircus with 40 samples.

Results

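The uterus of female Jining gray goats was compared at 2 ages after birth, month 2 and day 1, by small RNA sequencing. The comparison takes in 10 of the 40 libraries of the series, 5 uteri of day 1 and 5 of month 2, and all 427 mature microRNAs (miRNAs) of the count table, of which 331 could be tested. The other libraries are uterus at months 4 and 6 and ovary at the same 4 ages. The goats shared a farm and its husbandry, and the labels name no treatment or genotype. The labels number the individuals of each group 1 to 5 but do not say whether a uterus and an ovary came from the same goat, and p-values measure the spread between these samples. Each library is a tissue sample with all its cell types, so fewer cells of a type and less RNA per cell cannot be told apart.

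A miRNA is cut from a hairpin precursor, whose 5p and 3p arms can each give a mature strand. The strand that is loaded guides an Argonaute protein to messenger RNAs that pair with a short stretch near its 5' end, the seed, and lowers their output. The uterus of ruminants is unfinished at birth: endometrial glands grow from the lining epithelium into the stroma, and the muscle layers mature, during postnatal life. Among the miRNAs known from its layers are miR-143 and miR-145 in smooth muscle, miR-199 and miR-214 in stroma and the miR-200 family in epithelial cells.

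The 10 libraries held 7005651 to 8442089 counts each, and levels are given as counts per 1000000 counts of a library (CPM). miR-202-5p, a miRNA of the gonad, was at 0.638 CPM at day 1 and 0.0804 CPM at month 2, and miR-202-3p had no count, as a check of the tissue. Day 1 libraries held 384.6 ± 1.67 miRNAs with at least 1 count (mean ± SD, n = 5) and month 2 libraries 369.4 ± 10.2, a difference of -15.2 (exact two-sided permutation test, p = 0.0159, where 0.00794 is the smallest p that 5 against 5 can give). The difference was -15.6 after every library was thinned to 7005651 counts. Month 2 replicate 1 held 383 miRNAs, within the day 1 range of 382 to 386, and the other month 2 libraries 358 to 376. Without replicate 1 the difference was -18.6.

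One library stood apart from its group. Month 2 replicate 1 had a mean Spearman rho of 0.965 with the day 1 libraries and of 0.889 with the other month 2 libraries. Month 2 replicates 2 to 5 had means of 0.881 to 0.919 with day 1 and of 0.957 to 0.963 with the other month 2 libraries, replicate 1 included. The leading miRNA of replicate 1 was miR-143-3p at 24.6% of its counts, as in all 5 day 1 libraries (22.4% to 32.5%), whereas miR-10b-5p led in the other 4. Its 10 most abundant miRNAs held 74.2% of its counts, within the day 1 range of 70.5% to 75% and above the 62.4% to 65.9% of the other month 2 libraries. The reason was not tested. Replicate 1 is included below unless stated, and the counts of each list are given with and without it.

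Of the 331 tested miRNAs 91 (27.5%) differed between the ages, 56 (16.9%) higher and 35 (10.6%) lower at month 2. A call is an adjusted p under 0.05 in edgeR's quasi-likelihood test. The 96 not tested had at most 2.71 CPM on average, and 16 of them had 0 counts in the 10 libraries. The median log2 change of all tested miRNAs was -0.02. Without month 2 replicate 1, 188 of 337 (55.8%) were called, 95 (28.2%) higher and 93 (27.6%) lower, and these took in 90 of the 91, all 90 in the same direction. The counts of each list below stand beside these shares, 16.9% and 10.6% with replicate 1 and 28.2% and 27.6% without it. Leaving out month 2 replicate 2, 3, 4 or 5 instead cut the lower calls to 17, 20, 16 and 16. Scaling moved the split: DESeq2's size factors gave 56 higher and 57 lower, and scaling by totals gave 60 and 58. In CPM all 5 month 2 libraries lay above all day 1 libraries for 16 miRNAs (4.83%) and below them for 49 (14.8%), 65 in all (19.6%), and without replicate 1 the groups were apart for 203 (61.3%). Among the 57 miRNAs with a mean of 1000 CPM or more 17 rose and 5 fell (38.6% called), against 10 and 12 of the 94 under 10 CPM (23.4%).

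**Figure D1:**
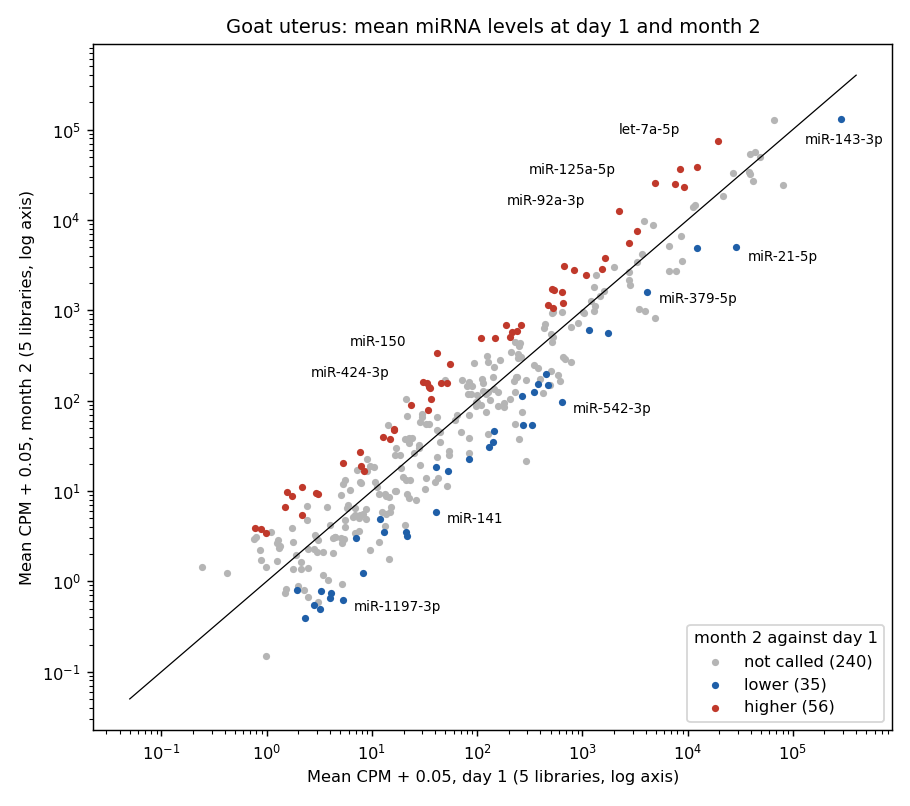
Mean CPM of the 331 tested miRNAs at day 1 (horizontal axis) and month 2 (vertical axis) in goat uterus, 5 libraries each, on log axes with 0.05 CPM added. Red points are the 56 miRNAs called higher, blue the 35 called lower and grey the 240 not called.

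**Figure D2:**
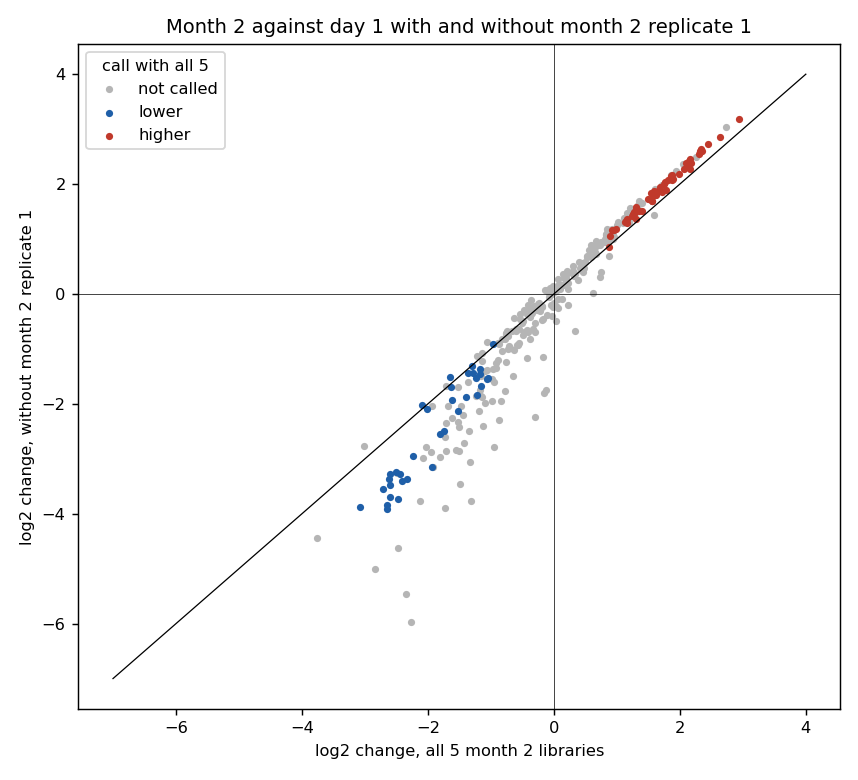
Log2 change of each tested miRNA with all 5 month 2 libraries (horizontal axis) and without month 2 replicate 1 (vertical axis), coloured by the call with all 5 (red higher, blue lower, grey not called), with a line of equal values. miR-21-5p lies below the line, at -2.42 with replicate 1 and -3.41 without it.

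The most abundant miRNA of the newborn uterus fell. miR-143-3p, of smooth muscle, was at 316509, 268367, 324755, 224150 and 292105 CPM in day 1 replicates 1 to 5 and at 245780, 126254, 97095, 102793 and 84565 CPM in month 2 replicates 1 to 5. Month 2 replicate 1 lay within the day 1 range and the other 4 below it. The log2 change was -1.04 ± 0.34 (SE; edgeR adjusted p = 0.0275), and -1.53 without replicate 1. The call ended when month 2 replicate 2, 3, 4 or 5 was left out (-0.97 to -0.89). miR-10b-5p, encoded in a HOX gene cluster, was at 23299 to 124424 CPM at day 1 and 87534 to 165984 CPM at month 2 (0.95 ± 0.42, adjusted p = 0.0868, and 1.04, called, without replicate 1). miR-148a-3p, a miRNA of epithelial and liver cells, was at 69537 to 87950 CPM at day 1, 74334 CPM in month 2 replicate 1 and 9479 to 14480 CPM in the other 4. Its change of -1.55 ± 0.72 was not called with replicate 1 (adjusted p = 0.1) and was -2.85 without it (adjusted p = 0.000595). Of the 10 most abundant miRNAs let-7f-5p, let-7i-5p, miR-26a-5p, miR-99a-5p, miR-10a-5p and miR-27b-3p were not called with or without replicate 1, at changes of -0.57 to 0.47.

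The let-7 family represses growth and cell cycle genes and is known to accumulate as tissues mature. Its summed share of the counts was 16.3% ± 1.32 at day 1 and 27.2% ± 4.87 at month 2 (mean ± SD, n = 5). A share depends on the rest of the library, where the share of the miR-143/miR-145 cluster was 29.5% at day 1 and 15.5% at month 2. The share was 14.8% to 18.4% in the day 1 libraries, 19.5% in month 2 replicate 1 and 25.7% to 32% in the other 4, so the groups did not overlap. let-7a-5p was at 22406, 16057, 16484, 21790 and 20812 CPM at day 1 and at 27683, 68626, 92948, 88986 and 91648 CPM at month 2. Every month 2 library was above every day 1 library, replicate 1 by the least. It rose by 1.88 ± 0.43 (adjusted p = 0.00486). let-7b-5p rose from 8546 ± 1595 to 37033 ± 15957 CPM (2.07 ± 0.47), let-7c-5p from 12428 ± 3212 to 38933 ± 13752 CPM (1.63 ± 0.44) and let-7d-5p from 533 ± 67 to 1660 ± 676 CPM (1.6 ± 0.37). These 4 were the calls among 16 tested entries, against 16.9% higher and 10.6% lower over all tested miRNAs, and the list's median was 0.48, against -0.02. No entry was called lower in this fit, but 2 were with DESeq2's size factors, in a fit blocked on replicate number or in one of the compared groups alone, and 3 by DESeq2. let-7g-5p (26848 and 33249 CPM), let-7f-5p (48778 and 49622 CPM) and let-7e-5p (1.29 ± 0.5, adjusted p = 0.0571) were not called. Without replicate 1, 6 entries rose and 1 fell, beside 28.2% higher and 27.6% lower of all tested miRNAs. The call of let-7c-5p ended without day 1 replicate 3 (1.53). let-7 members differ by few bases, as do miR-199a and miR-199b, miR-125a and miR-125b, and miR-16a and miR-16b, and how reads that match several were assigned is not given in the sources used here, so the split of reads within these pairs and families is uncertain.

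The miR-125 miRNAs, relatives of the worm timing gene lin-4 that are encoded beside let-7 and miR-99/miR-100 genes, included 3 rises among their 4 arms. miR-125a-5p was at 4209, 3624, 4913, 6056 and 5757 CPM at day 1 and at 6359, 18481, 29200, 36583 and 36209 CPM at month 2. The groups did not overlap, and replicate 1 was the lowest of month 2. The change was 2.31 ± 0.47 (adjusted p = 0.00305). miR-125b-5p rose from 7659 ± 961 to 25209 ± 10114 CPM (1.68 ± 0.46), and miR-125b-3p was not called (0.52 ± 0.27, adjusted p = 0.134). With miR-125a-3p (1.31 ± 0.47) these were the 3 calls of 13 tested members of the miR-10, miR-99, miR-100 and miR-125 families, with a median of 0.52. Over all tested miRNAs 16.9% were higher and 10.6% lower. Without replicate 1, 7 rose and 0 fell, beside 28.2% higher and 27.6% lower of all tested miRNAs. The call of miR-125a-3p ended when any 1 of the 10 libraries but month 2 replicate 1 was left out (1.14 to 1.42). None of 6 tested entries encoded in HOX clusters was called (median 0.48), and 3 rose without replicate 1. By DESeq2 or with only the compared groups fitted 1 rose.

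The miR-17-92 cluster and its paralogs miR-106b-25 and miR-106a-363 are known for promoting proliferation, each read from 1 long transcript. Of 16 tested entries 7 rose and 1 fell (median 0.08), beside 16.9% and 10.6% of all tested miRNAs. miR-92a-3p was at 2049, 1720, 2320, 3032 and 1931 CPM at day 1 and at 1902, 9127, 14205, 20469 and 17345 CPM at month 2. Replicate 1 lay within the day 1 range and the other 4 month 2 libraries above it. The change was 2.45 ± 0.49 (adjusted p = 0.00305), and 2.73 without replicate 1. miR-25-3p, which shares its seed with miR-92a-3p, rose from 3339 ± 218 to 7585 ± 3061 CPM (1.15 ± 0.28). The scarce miR-25-5p rose from 2.12 to 11 CPM (2.31 ± 0.42) and miR-92a-5p from 0.718 to 3.83 CPM (2.36 ± 0.49). miR-20a-5p, from the transcript of miR-92a, had a lower level at month 2, 109 to 426 CPM against 447 to 656 CPM at day 1, without overlap. Its change of -1.18 ± 0.56 was not called (adjusted p = 0.107), and was -1.74, called, without replicate 1. At means of at most 3.37 CPM miR-18a-5p fell (-2.65 ± 0.9) and miR-18a-3p rose (1.79 ± 0.52). Without replicate 1, 7 of 17 rose and 5 fell, beside 28.2% higher and 27.6% lower of all tested miRNAs. miR-19b-3p (-3.78) and miR-106b-5p (-2.43) were among those that fell. The median was -0.37 without replicate 1, and it was also below 0 without month 2 replicate 2, 3, 4 or 5 (-0.44, -0.53, -0.35 and -0.53) and without day 1 replicate 5 (-0.58), each with 17 entries tested in place of 16, with only the compared groups fitted (-0.51, with 15 tested), and with no low-count filter or a minimum of 10 CPM in 5 libraries (-0.31 in both, with 24 and 10 tested). So it was without day 1 replicate 4 (-0.01), without 3 later uterus libraries that stood apart in earlier results (-0.53), and without these and replicate 1 (-0.43). Calls ended for miR-18a-5p without month 2 replicate 2, 3, 4 or 5 (-2.64 to -2.31), for miR-18a-3p without month 2 replicate 4 (1.45), for miR-93-3p (1.3 ± 0.4) without month 2 replicate 3 or 5 (1.16 to 1.24) and for miR-106b-3p (0.95 ± 0.3) without day 1 replicate 2 or 4 or month 2 replicate 4 or 5 (0.85 to 0.9).

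Hairpins that lie within 10 kb of each other in the RefSeq annotation of ARS1.2 differed in how their arms moved. The counts below stand beside 16.9% higher and 10.6% lower of all tested miRNAs. Of 6 tested arms of miR-106b, miR-93 and miR-25, 4 rose and 0 fell (median 1.05), over a range of -1.51 to 2.31. The lowest of them, miR-106b-5p, was not called here (adjusted p = 0.113) but fell without replicate 1, as given above. Of 7 tested arms of miR-17, miR-18a, miR-19a, miR-20a, miR-19b and miR-92a 3 rose and 1 fell, over a range of -2.65 to 2.45. The arms of miR-424, miR-450 and miR-542, an X-linked group known from muscle and other differentiating cells, spanned -2.6 to 2.34, with 1 of 6 higher and 1 lower (median -0.38), and 1 and 2 without replicate 1 (median -0.58). The lower one was miR-542-3p, at 1231, 756, 453, 523 and 267 CPM at day 1 and at 241, 97.1, 44.7, 61.1 and 32.9 CPM at month 2. The groups did not overlap, and replicate 1 was the highest of month 2. Its change was -2.6 ± 0.7 (adjusted p = 0.0103). The higher one, miR-424-3p, was at 21.3 to 41.3 CPM at day 1, 21.7 CPM in month 2 replicate 1 and 138 to 240 CPM in the other 4 (2.34 ± 0.44, adjusted p = 0.00216). In the miR-15/16 family, which restrains the cell cycle and shares its seed with miR-424-5p, miR-16b-5p (1.26 ± 0.41) and miR-195-3p (1.88 ± 0.36) rose of 8 tested entries, none fell, and the median was 0.16. Without replicate 1, 2 rose and 1 fell (median 0.1), and 1 also fell by DESeq2 or with only the compared groups fitted. The call of miR-16b-5p ended without any 1 of 7 libraries, the 5 of day 1 and month 2 replicates 2 and 5 (1.16 to 1.29).

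**Figure D3:**
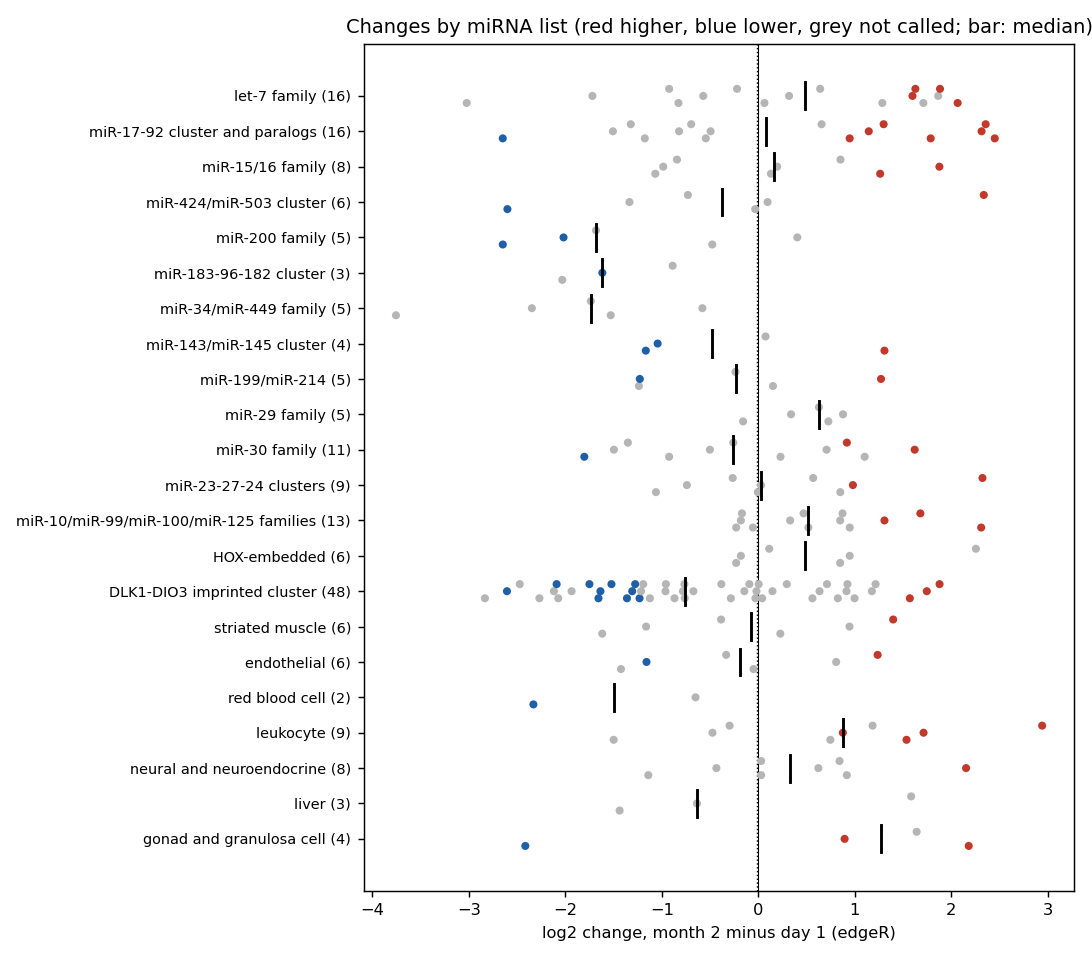
Log2 change from day 1 to month 2 of the tested members of 22 miRNA lists (number tested in parentheses), 1 point per miRNA, red higher, blue lower and grey not called. Black bars are list medians and the dotted line is the median of all tested miRNAs at -0.02; the bar of the DLK1-DIO3 cluster lies at -0.76 and that of the let-7 family at 0.48.

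Among epithelial miRNAs, some fell, and the most abundant of the miR-200 family was not called. miR-429 of the miR-200 family, which keeps cells epithelial by repressing ZEB factors, was at 115, 89, 165, 151 and 184 CPM at day 1 and at 36.5, 42.6, 40.1, 24.3 and 30.1 CPM at month 2. All month 2 values were below all day 1 values, and replicate 1 lay among the others. The change was -2.02 ± 0.69 (adjusted p = 0.0353). miR-141 was at 34.8 to 54.1 CPM at day 1, 17.3 CPM in month 2 replicate 1 and 2.47 to 3.2 CPM in the others (-2.65 ± 0.87, adjusted p = 0.028, and -3.84 without replicate 1). These were the 2 calls of 5 members (median -1.68), and 3 were lower without replicate 1 (median -2.04). Of all tested miRNAs 10.6% were lower, and 27.6% without replicate 1. miR-200a, a neighbour of miR-429 in the genome, was at 3428 ± 1268 and 1031 ± 407 CPM without overlap (-1.68 ± 0.63, adjusted p = 0.0521, and -2.04, called, without replicate 1). miR-200b, of the same gene group, was at 3798 to 12864 and 2713 to 9314 CPM, with overlap (-0.48 ± 0.6). miR-200c was at 1294 ± 410 and 1791 ± 636 CPM and its change, of the opposite sign, was not called (0.4 ± 0.52, adjusted p = 0.539). The family's share of the counts was 1.36% ± 0.53 and 0.946% ± 0.273. Of the 3 members of the miR-183 cluster, known from sensory and other epithelia, miR-182 fell (-1.62 ± 0.56; list median -1.62), and 2 were lower without replicate 1 (median -1.93). The calls of miR-141, miR-429 and miR-182 ended without month 2 replicate 2, 3, 4 or 5, those of the last 2 also without day 1 replicate 3 or 5 (-2.46 to -2.42 for miR-141, -2.05 to -1.88 for miR-429 and -1.58 to -1.42 for miR-182).

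The miR-34/miR-449 miRNAs, which act in the formation of motile cilia, varied widely within a group. None of 5 tested members was called (median -1.74). The median was -0.39 without day 1 replicate 5 and -0.52 with the replicate number as a block, and it was -2.6 with 1 lower call without month 2 replicate 1. miR-34c-5p was at 124, 210, 3864, 143 and 20233 CPM at day 1 and at 3652, 390, 58.4, 26 and 16.4 CPM at month 2. Day 1 replicates 3 and 5 and month 2 replicate 1 were high. Its change was -2.35 ± 1.67 (adjusted p = 0.257), and -5.46, called, without replicate 1. miR-449a-5p was at 30.9, 24.5, 841, 2.07 and 558 CPM at day 1 and at 49.6, 53.2, 4.91, 0.391 and 0.256 CPM at month 2, again highest in day 1 replicates 3 and 5 (-3.76 ± 1.98, adjusted p = 0.139).

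**Figure D4:**
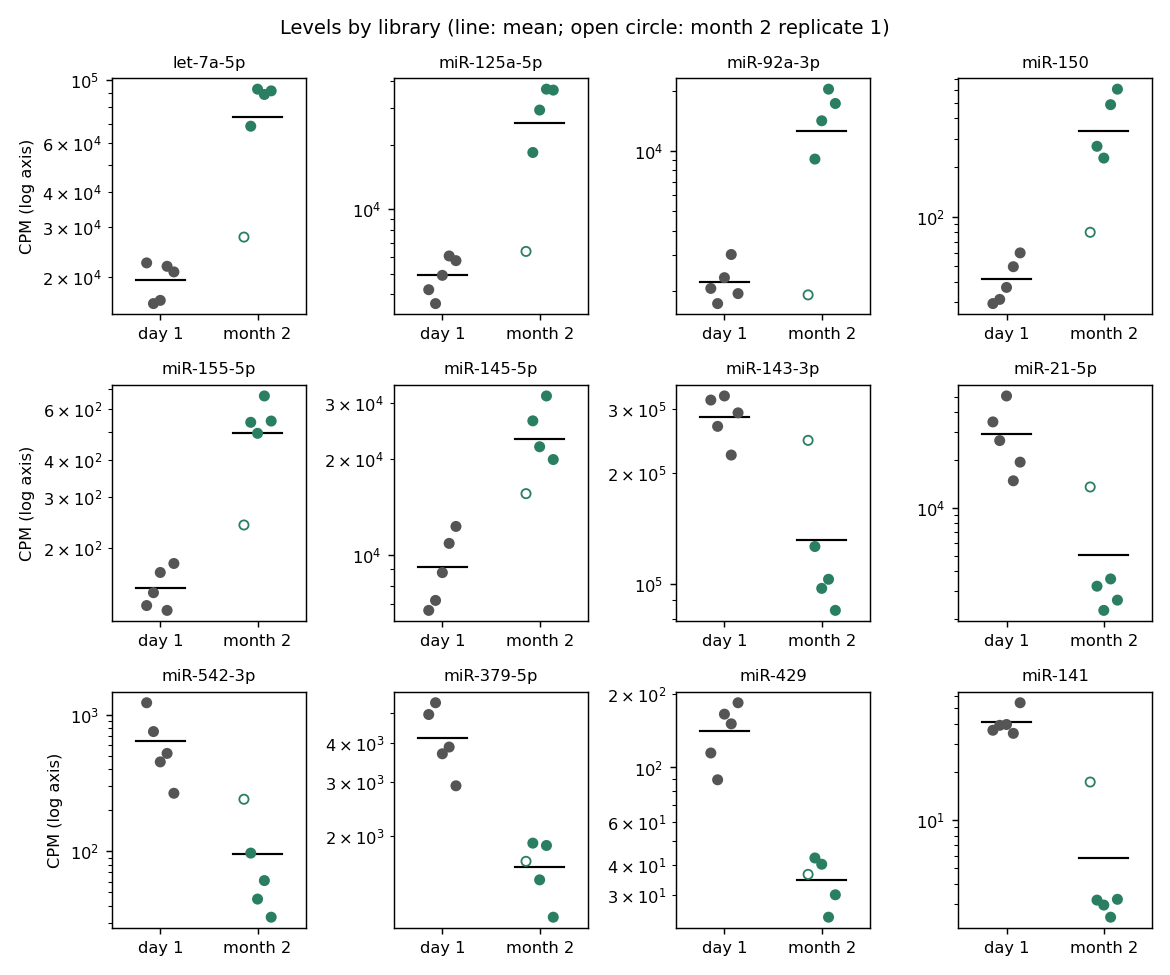
CPM of 12 miRNAs in each library at day 1 (grey) and month 2 (green), on log axes that differ between panels, with a line at the mean and an open circle for month 2 replicate 1. The open circle lies within the day 1 range for miR-143-3p, among the other month 2 libraries for miR-429 and miR-379-5p, and just under the lowest day 1 library for miR-21-5p.

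Of the 4 arms of the smooth muscle cluster, whose hairpins share a transcript, 1 rose, 2 fell and 1 was not called, with and without replicate 1. miR-145-5p, which drives smooth muscle differentiation, was at 6687, 7186, 8785, 10852 and 12266 CPM at day 1 and at 15545, 26311, 21820, 31497 and 19893 CPM at month 2. All month 2 libraries were above all day 1 libraries. It rose by 1.31 ± 0.28 (adjusted p = 0.00358), while both arms of miR-143 fell, miR-143-5p by 1.17 ± 0.32 on the log2 scale. miR-145-3p, at 509 and 543 CPM, was not called (0.08 ± 0.3, adjusted p = 0.862). The cluster's share of the counts was 29.5% ± 3.99 at day 1 and 15.5% ± 6.23 at month 2, with 26.2% in replicate 1. Of 6 striated muscle entries miR-133a-3p rose, at 171 to 340 CPM at day 1 and 397 to 859 CPM at month 2 (1.4 ± 0.32). None fell in this fit, but 2 were lower with DESeq2's size factors, scaling by totals, cyclic loess or the replicate number as a block. By DESeq2, with either other filter or with only the compared groups 2 were lower as well. The median of that list was -0.08, and 0.15 with cyclic loess scaling. Without replicate 1, 1 rose and 2 fell (median -0.51). miR-1, encoded beside miR-133a, was at 6688 ± 814 and 2740 ± 1933 CPM (-1.16 ± 0.49, adjusted p = 0.0767, and -1.86, called, without replicate 1). Among 5 entries of the stromal miR-199/miR-214 list miR-214-3p rose (1.27 ± 0.33) and miR-199b-5p fell (-1.23 ± 0.38), with a median of -0.24, and 1 rose and 2 fell without replicate 1. miR-199b-5p was at 11027 to 13220 CPM at day 1, 10216 CPM in month 2 replicate 1 and 3240 to 3952 CPM in the others. Its call ended without month 2 replicate 2, 3, 4 or 5 (-1.1 to -1.07). The miR-29 family, which represses collagens, had no call among 5 entries. Its median of 0.63 moved with single libraries: it was 0.26 without day 1 replicate 1, 0.32 without day 1 replicate 4 and 0.03 without month 2 replicate 1, where 1 entry, miR-29b-3p (-1.79), was lower.

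The DLK1-DIO3 region holds a large imprinted miRNA cluster that is expressed from the maternal chromosome and known for its activity in fetal tissue. Of 48 tested members 10 fell and 3 rose, beside 10.6% lower and 16.9% higher of all tested miRNAs, with a median of -0.76, between -0.85 and -0.46 under the other scalings. The lower calls depended on the libraries: 23 of 50 fell and 8 rose without month 2 replicate 1, beside 27.6% lower and 28.2% higher of all tested miRNAs. Without month 2 replicates 2, 3, 4 and 5, 6, 8, 6 and 5 of 50 fell, beside 17, 20, 16 and 16 of all 338 tested. DESeq2 called 19 of 48 lower, and edgeR with DESeq2's size factors 15. The list's miR-345-3p (-1.28 ± 0.39), 1 of the 10, is from a hairpin that is not among the cluster's neighbours in the RefSeq annotation of ARS1.2. miR-379-5p, the most abundant that fell, was at 4940, 5391, 3689, 3878 and 2908 CPM at day 1 and at 1658, 1898, 1445, 1865 and 1094 CPM at month 2. The groups did not overlap, and replicate 1 lay among the other month 2 libraries. The change was -1.36 ± 0.28 (adjusted p = 0.00305). miR-493-3p fell from 143 ± 19.6 to 45.8 ± 10 CPM (-1.64 ± 0.45) without overlap. miR-758 (-1.66 ± 0.39), miR-376d (-2.61 ± 0.73) and miR-127-5p (-1.75 ± 0.63) also fell, as did miR-411a-5p (-1.52 ± 0.53), miR-382-3p (-1.23 ± 0.37), miR-487a-3p (-2.09 ± 0.72) and miR-665 (-1.31 ± 0.45). miR-127-3p, the list's most abundant entry, was at 11174 ± 2353 and 14081 ± 6100 CPM and was not called, and the list's share of the counts was 2.13% ± 0.443 and 2.06% ± 0.753. The 3 that rose were miR-433 (1.88 ± 0.61), miR-485-5p (1.75 ± 0.43) and miR-154b-5p (1.57 ± 0.43), each with replicate 1 as the lowest month 2 library. The call of miR-127-5p ended without day 1 replicate 2 or month 2 replicate 2, 3, 4 or 5 (-1.74 to -1.53), and that of miR-433 without day 1 replicate 2, 3, 4 or 5 or month 2 replicate 4 (1.31 to 1.86). Calls also ended for miR-411a-5p without month 2 replicate 2, 3, 4 or 5 (-1.45 to -1.34), for miR-382-3p without month 2 replicate 5 (-1.1), for miR-345-3p (-1.24 to -1.1) and miR-487a-3p (-2.07 to -1.84) without month 2 replicate 2, 4 or 5, and for miR-665 without day 1 replicate 2, 3 or 4 or month 2 replicate 2, 3, 4 or 5 (-1.41 to -1.12).

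By position, RefSeq places 38 hairpins of this cluster within 10 kb of a neighbour, and 9 of their 42 tested arms fell and 2 rose (median -0.76). In the adjoining group of miR-493, miR-665, miR-433, miR-127, miR-432 and miR-136, 3 of 9 tested arms fell and 1 rose. Of all tested miRNAs 10.6% fell and 16.9% rose. The hairpins miR-3958, miR-3959 and miR-1197 are among the 38 but not on the list. miR-3958-3p was not called (-0.42 ± 0.3, adjusted p = 0.257). miR-3959-3p fell from 21.5 ± 6.96 to 3.16 ± 3.36 CPM (-2.6 ± 0.57), and miR-3959-5p changed by -1.39 ± 0.42. miR-1197-3p fell from 5.3 ± 1.88 to 0.576 ± 0.574 CPM (-3.08 ± 0.84). The call of miR-3959-5p ended without month 2 replicate 2, 4 or 5 (-1.32 to -1.24).

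Among leukocyte miRNAs 4 of 9 rose and none fell (median 0.88), beside 16.9% higher and 10.6% lower of all tested miRNAs. Without replicate 1, 5 rose and 1 fell, beside 28.2% higher and 27.6% lower of all tested miRNAs. Without day 1 replicate 2 or month 2 replicate 5 only 2 rose. With scaling by totals, by DESeq2 or with the replicate number as a block 1 fell. miR-150, of mature lymphocytes, had the highest log2 change of the tested miRNAs. It was at 29.3, 31.1, 36.8, 49.3 and 60 CPM at day 1 and at 80.2, 270, 228, 485 and 604 CPM at month 2. All month 2 libraries were above all day 1 libraries, replicate 1 by the least. The change was 2.94 ± 0.43 (adjusted p = 0.000401). miR-155-5p, of activated lymphocytes and macrophages, rose without overlap, at 122 to 177 CPM at day 1 and 240 to 665 CPM at month 2 (1.71 ± 0.45). So did miR-342-3p, at 482 to 929 and 1074 to 1271 CPM (0.88 ± 0.28). miR-342-5p rose by 1.54 ± 0.49. miR-146a, induced by innate immune signals, was at 40.2 ± 7.8 and 12.6 ± 15.2 CPM (-1.5 ± 0.71, adjusted p = 0.105, and -2.86, called, without replicate 1). Both arms of miR-223, of neutrophils, were also below 0 and not called (-0.3 ± 0.51 for 3p and -0.47 ± 0.77 for 5p). The list's share of the counts was 0.101% ± 0.0206 at day 1 and 0.223% ± 0.0372 at month 2. Of 2 red blood cell entries miR-144-5p fell (-2.33 ± 0.71), from 2.77 to 0.504 CPM, and miR-451-5p was at 41.8 and 23.9 CPM. Of 6 endothelial entries miR-222-3p rose (1.24 ± 0.33) and miR-126-5p fell (-1.16 ± 0.41), with a median of -0.19. Without replicate 1, 2 of these 6 rose and 3 fell (median -0.42), and 1 of the 2 red blood cell entries fell (median -1.49 with replicate 1 and -2.43 without it). The part of blood cells in these changes was not tested. Calls ended for miR-342-3p without day 1 replicate 2 or month 2 replicate 5 (0.74 to 0.89), for miR-342-5p without any day 1 library or month 2 replicate 5 (1.28 to 1.58), for miR-144-5p without month 2 replicate 3 or 4 (-2.06) and for miR-126-5p without month 2 replicate 2, 3, 4 or 5 (-1.07 to -0.99).

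Other large changes lay outside the groups above. miR-21-5p, known from proliferating and fibrotic tissue, was at 34693, 26465, 50545, 14772 and 19361 CPM at day 1 and at 13510, 3206, 2257, 3562 and 2619 CPM at month 2. No month 2 library reached the lowest day 1 library, and replicate 1 was nearest to it. It changed by -2.42 ± 0.54 (adjusted p = 0.00466). miR-320-3p rose from 666 ± 148 to 3108 ± 1750 CPM (2.18 ± 0.36, adjusted p = 0.000853) without overlap. Both belong to the gonad and granulosa cell list, where miR-224-5p (0.89 ± 0.27) also rose, so that 2 rose and 1 fell of 4 tested (median 1.27), and 3 and 1 without replicate 1. miR-340-5p fell from 330 ± 136 to 53.2 ± 40 CPM (-2.51 ± 0.68), and miR-374a-3p (-2.24 ± 0.71), miR-374b-3p (-2.45 ± 0.83) and miR-708-5p (-1.94 ± 0.71) fell as well. miR-1343 (2.17 ± 0.52), miR-197-3p (2.14 ± 0.62) and miR-328-3p (2.1 ± 0.56) rose, with replicate 1 below the day 1 range and the other 4 month 2 libraries above it. miR-365-3p rose (1.98 ± 0.33) with replicate 1 inside the day 1 range. Calls ended without month 2 replicate 2, 3, 4 or 5 for miR-374a-3p (-2.14 to -2.04), miR-374b-3p (-2.44 to -2.21) and miR-708-5p (-1.76 to -1.7), for the last also without day 1 replicate 3. The call of miR-224-5p ended without day 1 replicate 1, 2, 3 or 5 or month 2 replicate 3 or 5 (0.78 to 0.88).

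The counts of the remaining lists stand beside 16.9% higher and 10.6% lower of all tested miRNAs. Without replicate 1 these shares were 28.2% and 27.6%. Of 11 entries of the miR-30 family, known from epithelial cells, miR-30b-3p (1.62 ± 0.41) and miR-30c-3p (0.92 ± 0.33) rose and miR-30d-3p fell (-1.8 ± 0.49), with a median of -0.26. Without replicate 1, 3 rose and 4 fell (median -0.17). miR-30a-5p was at 7824 ± 1881 and 2733 ± 2894 CPM (-1.35 ± 0.67, adjusted p = 0.116, and -2.5, called, without replicate 1). Of 9 entries of the miR-23, miR-27 and miR-24 clusters, active in vessels and muscle, miR-23b-3p (0.98 ± 0.29) and miR-23b-5p (2.32 ± 0.56) rose. The median of that list was 0.03, and -0.04 with DESeq2's size factors, and 3 rose and 1 fell without replicate 1. Of 8 neural and neuroendocrine entries miR-129-3p rose (2.15 ± 0.59), from 1.45 to 6.6 CPM (median 0.33), and without replicate 1 3 rose and 2 fell. None of 3 liver entries was called (median -0.64). Without replicate 1, 2 of the 3 were lower, miR-192-5p (-2.21) and miR-194 (-1.03), with a median of -1.03. With cyclic loess 1 was higher and 1 lower. With DESeq2's size factors, scaling by totals, a fit of the compared groups alone or one blocked on replicate number, 1 was lower. So it was with any day 1 library left out. The call of miR-30c-3p ended without day 1 replicate 2, 3, 4 or 5 or month 2 replicate 2, 3, 4 or 5 (0.78 to 0.94), and that of miR-23b-3p without day 1 replicate 3 or 5 or month 2 replicate 5 (0.86 to 0.93).

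The balance between the arms of a hairpin changed with age in many hairpins. The log2 ratio of 5p to 3p counts within a library does not depend on how libraries are scaled, and it was tested with limma in 53 hairpins with both arms at a mean of at least 10 CPM. In 25 of them (47.2%) the ratio differed, 9 (17.0%) towards 5p and 16 (30.2%) towards 3p at month 2. Without replicate 1 it differed in 31 of 54 (57.4%), and without month 2 replicate 5 in 16. The median absolute change was 1.05, against a median SD between libraries of 0.332 at day 1 and 0.667 at month 2. Of the 25, 13 moved towards the arm that was larger at day 1 and 12 towards the smaller one. In the test of single miRNAs, 22 of the 53 hairpins had 1 arm called, 4 had both called in 1 direction and 0 had both called in opposite directions.

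The largest arm change was that of miR-424. Its log2 ratio was 1.14, 2.75, 2.00, 1.95 and 2.41 in the day 1 libraries, where 5p was the larger arm in all 5. In month 2 replicate 1 it was 2.81, and in replicates 2 to 5 it was -3.15, -3.71, -4.39 and -3.59, where 3p was the larger arm. The change in the mean was -4.45 ± 1.22 (limma adjusted p = 0.00814), and -5.76 without replicate 1. miR-455 had ratios of 1.03 to 1.52 at day 1, 1.39 in month 2 replicate 1 and -2.87 to -2.21 in the others (-3.01 ± 0.67, adjusted p = 0.00401). miR-106b (-2.83 ± 0.84), miR-34c (-2.61 ± 0.65) and miR-127 (-2.35 ± 0.74) also moved towards 3p. miR-382 of the imprinted cluster moved towards 5p, from -0.9 to -0.29 at day 1 to 1.57 to 2.28 in month 2 replicates 2 to 5, with -0.81 in replicate 1 (2.12 ± 0.67, adjusted p = 0.0154). miR-374b (2.56 ± 0.54), miR-3959 (1.56 ± 0.36), miR-493 (1.54 ± 0.35) and miR-148a (1.25 ± 0.43) moved the same way. In 6 of the 53 hairpins the larger arm by group mean switched, namely miR-424, miR-455, miR-382, miR-30e, miR-331 and miR-374a, the last 2 without a called change. The calls ended for miR-127 without month 2 replicate 5 (-2.03), for miR-148a without month 2 replicate 2, 3 or 5 (1.1 to 1.15) and for miR-30e (-2.21 ± 0.73) without month 2 replicate 3 or 5 (-2.02 to -1.92).

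Month 2 replicates 2 to 5 lay apart from all day 1 libraries in all 25 hairpins with a called ratio, and in 77.4% of the 53 tested. With replicate 1 counted the groups were apart in 9 of the 25, and in 28.3% of the 53. Replicate 1 was within the day 1 range in 10 of the 25, beyond it in the direction of the change in 9 and beyond it in the opposite direction in 6.

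**Figure D5:**
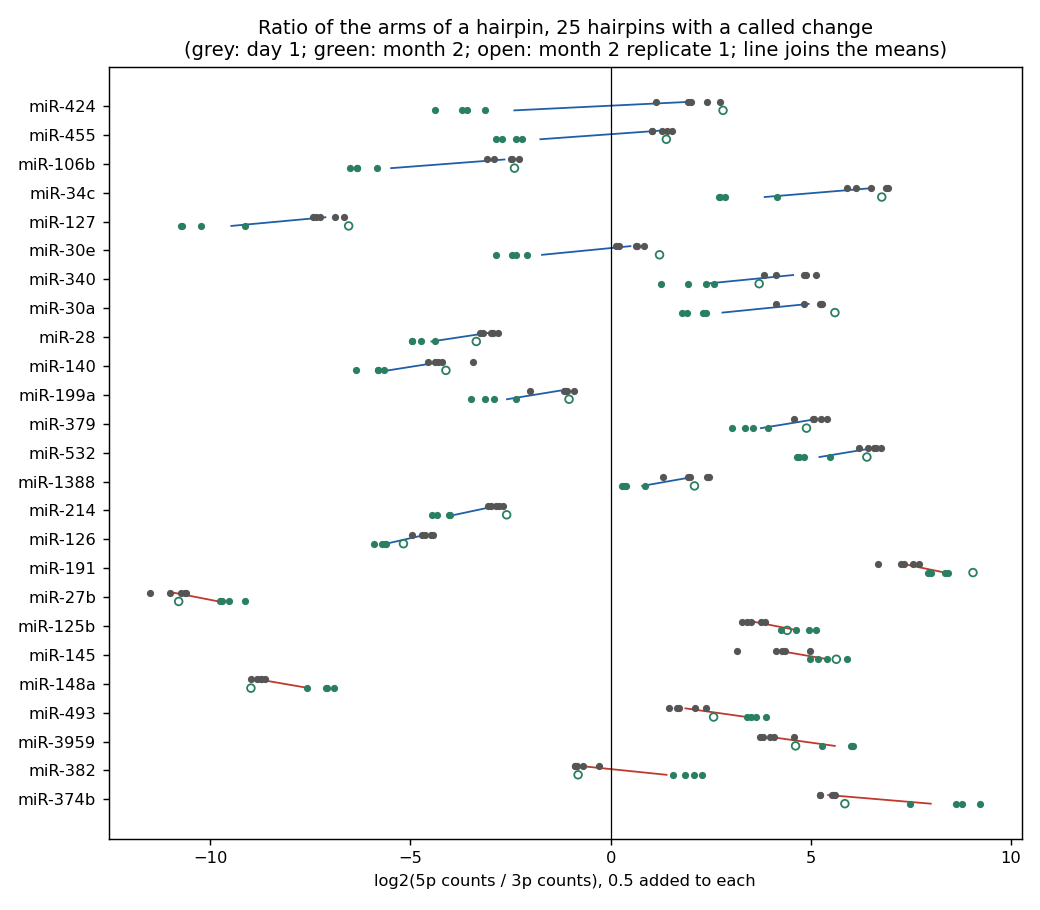
Log2 ratio of 5p to 3p counts per library for the 25 hairpins with a called change, with day 1 in grey, month 2 replicates 2 to 5 as filled green points and replicate 1 as an open point. Lines join the group means, blue towards 3p and red towards 5p; for miR-424, miR-455 and miR-30e the filled green points lie left of 0 and the grey points right of it.

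Whether the change from day 1 to month 2 differed between uterus and ovary was tested as an interaction over all 40 libraries. edgeR called 0 of 350 miRNAs (0.0%), with 47 at an unadjusted p under 0.05, and DESeq2 called 9. The smallest adjusted p, 0.0532, was that of miR-148b-3p, named for that reason after its value was seen. It was at 2862 ± 266 and 1925 ± 553 CPM in uterus and at 3957 ± 2085 and 8307 ± 2124 CPM in ovary, and the uterus change minus the ovary change was -1.83 ± 0.43. That difference was -0.46 ± 0.67 for let-7a-5p, -0.72 ± 0.65 for miR-92a-3p, 0.31 ± 0.72 for miR-150, 0.29 ± 0.86 for miR-21-5p and 1.66 ± 0.81 for miR-143-3p. None of these 5 was called, which does not show that the tissues changed alike.

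The later uterus libraries give the levels of the same miRNAs at months 4 and 6. Included are the 3 that stood apart in earlier results, month 4 replicate 4 and month 6 replicates 4 and 5. let-7a-5p was at 83472 ± 36610 CPM at month 4 and 72303 ± 48461 CPM at month 6. miR-150 was at 548 ± 99.6 and 434 ± 182 CPM, miR-92a-3p at 19520 ± 7082 and 19465 ± 10461 CPM, and miR-21-5p at 4634 ± 1428 and 8201 ± 1910 CPM. These means lie on the month 2 side of the day 1 ranges. miR-379-5p was at 1185 ± 330 and 1560 ± 572 CPM and miR-145-5p at 19804 ± 4162 and 28832 ± 6946 CPM, likewise. miR-200b was at 5436 ± 3523 CPM at month 4 and 20936 ± 17107 CPM at month 6. The latter mean is above its day 1 range, but the libraries behind it varied widely.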

How the data were processed

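The authors deposited raw counts per mature miRNA, whole numbers with no normalization, in 1 table with a column for each of 40 libraries. RSEM 1.3.0, Bowtie 1.0.1 and cutadapt 1.16 are listed in the submitters' processing notes, which assign them no role here. Genome build, annotation and the handling of reads that match several miRNAs are not given in the sources used here.

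The test was edgeR 4.0.16 (R 4.3.3) with filterByExpr, TMM scaling and a quasi-likelihood fit to the 20 uterus libraries, with age as the group, so that the 4 ages share 1 estimate of the spread. Interactions were fitted to all 40 libraries. Adjusted p-values (Benjamini-Hochberg) cover every miRNA in a fit. The SE is the absolute log2 change divided by the square root of F. Arm ratios, with 0.5 added to each count, were tested with limma 3.58.1; their change is a difference of mean log2 values, whereas the edgeR change follows mean counts. Neighbouring hairpins were taken from RefSeq ARS1.2 (261 of 263 matched). The scripts were tested on simulated counts. Mature sequences were not used here, so the planned checks of base composition were not run.

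Named miRNAs are the 12 largest called changes in each direction with a mean of at least 10 CPM, the 10 most abundant, members of 23 lists (22 with a member in the table) and, for arm ratios, the 5 largest called changes in each direction. Hairpins among the neighbours that are on no list, and miR-30e, were named after their values were seen. Members and lists were chosen with earlier results of these data known. Alternatives were DESeq2 1.42.0 (size factors and Wald test), scaling by totals or cyclic loess, other filters, the replicate number as a block, fewer libraries in the fit and each library left out in turn.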

Additional observations from a re-analysis of the deposited data

Results flagged for a closer look

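A library was singled out by its gap to the nearest library of its group, divided by the range of the group. This ratio had to exceed Dixon's 95% critical value for 5 samples, which chance does in about 1 of 20 groups. Over the 331 tested miRNAs this was month 2 replicate 1 in 66, and any other of the 10 libraries in at most 8. The flags given here cover the 12 largest named changes in each direction and the 10 most abundant miRNAs, not the other list members. Among these, month 2 replicate 1 stood above its group for miR-143-3p at 245780 CPM, miR-148a-3p at 74334 CPM and miR-21-5p at 13510 CPM. It did so too for miR-340-5p at 122 CPM, miR-374a-3p at 121 CPM and miR-708-5p at 92.4 CPM. The same held for miR-141 at 17.3 CPM and miR-3959-3p at 9.12 CPM. In day 1, replicate 1 stood above its group for miR-433 at 46.1 CPM and miR-374b-3p at 33.1 CPM, replicate 4 for let-7f-5p at 59559 CPM and replicate 5 for miR-141 at 54.1 CPM.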

How the results depend on the processing

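Calls numbered 91, and 137 with no low-count filter, 141 with only the compared groups fitted, 141 when 3 later uterus libraries that stood apart in earlier results were dropped, and 209, of which 100 were higher, when month 2 replicate 1 was dropped as well. Single removals gave 61 to 188 calls, 45 to 95 higher and 16 to 93 lower, the highest of each without month 2 replicate 1. Lower calls numbered 35, and 57 with DESeq2's size factors or a minimum of 10 CPM in 5 libraries, 58 with scaling by totals, 60 with no filter, 73 by DESeq2 (1 adjusted p not given), 65 with only the compared groups, 74 without the 3 libraries and 109 without these and replicate 1. Called arm ratios numbered 11 with both arms at 100 CPM (4 towards 5p, 7 towards 3p), and 14 moved towards 5p with only the compared groups. Single removals gave 16 to 31, with 5 to 9 towards 5p and 11 to 22 towards 3p. The tissue difference had 2 calls with the stricter filter, 9 by DESeq2, 5 with only the compared groups, 4 without libraries that stood apart and 0 to 1 without single libraries. The detected miRNAs per library differed by -18.6 to -12.35 without single libraries and by -17.4 at 10 counts or more.

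The replicate block gave 104 calls, 55 higher and 49 lower, and 22 arm ratios. Deviations from the group mean of same-numbered day 1 and month 2 uterus libraries correlated at -0.371 to 0.306. No day 1 library correlated best with its own number. With 5 libraries a side this cannot decide whether the numbers pair samples, and uterus was not compared with ovary in this way. Uncalled values near 0 changed sign. let-7f-5p was -0.0163 with DESeq2's size factors and by DESeq2, -0.36 with cyclic loess, -0.24 with the stricter filter, -0.0145 with the block, -0.14 without the 3 libraries and replicate 1, and -0.09 to 0.172 without single libraries. With cyclic loess miR-26a-5p was -0.036 and let-7g-5p -0.0806. miR-10a-5p ran from -0.49 to 0.21 without single libraries. miR-145-3p was -0.0123 with DESeq2's size factors, -0.0122 by DESeq2, -0.11 with cyclic loess, -0.21 with the stricter filter and -0.11 to 0.22 without single libraries. miR-223-5p was 0.0742 with cyclic loess, 0.0225 with the block and -0.77 to 0.64 without single libraries. miR-127-3p was -0.0800 with cyclic loess and -0.0268 with the stricter filter. miR-29b-3p ran from -1.79 to 0.40 without single libraries and was -1.81 without the 3 libraries and replicate 1. The cause of these shifts was not tested. Scaling by a trend over base composition, alone or with the block, was not run.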
